A study of Homo sapiens with 6 samples.

Results

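The enzymes of serine and glycine synthesis were examined in BE(2)-C_tetoff_KDM4C cells, a derivative of the human neuroblastoma line BE(2)-C that carries KDM4C under a tet-off control. The 5 genes, PHGDH, PSAT1, PSPH, SHMT1 and SHMT2, were taken by symbol from the platform annotation, which gave each of them exactly 1 probe set. They are 5 of 14884 genes with a name among 53617 probe sets. Total RNA was measured on 6 whole-transcript Affymetrix arrays. On 3 arrays the cells had been grown for 6 days with doxycycline, which keeps a tet-off construct silent, and on the other 3 for 6 days without it, which lets the construct be expressed. Both groups carried the construct and grew in DME/F-12 medium with dialyzed serum. Parental cells that lack the construct were not analysed here, and induction of KDM4C and withdrawal of doxycycline cannot be told apart. The labels do not say whether the derivative is 1 clone or a pool, and the design text calls the samples independent without naming separate cultures. The p-values therefore measure the spread between these samples, which may be technical.

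Serine is made from 3-phosphoglycerate, an intermediate of glycolysis, in a chain of reactions. PHGDH (phosphoglycerate dehydrogenase) oxidises it, PSAT1 (phosphoserine aminotransferase) adds an amino group taken from glutamate, and PSPH (phosphoserine phosphatase) removes the phosphate. Serine hydroxymethyltransferase then converts serine to glycine and passes the released carbon to folate, in the cytosol as SHMT1 and in mitochondria as SHMT2. The pathway feeds protein, nucleotide, glutathione and lipid synthesis and is known for its activity in neuroblastoma. KDM4C removes methyl groups from lysine 9 of histone H3, and the comparison asks how these enzymes' transcripts stand when it is induced.

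Promoter sequences are shown because members whose transcripts stood higher together and a member that did not can be compared in them. The RefSeq promoter table (GRCh38.p14) held 3 of the 5 genes, PHGDH, PSAT1 and SHMT1. The 250 bases before each start are printed below, 5′ to 3′ on the strand of the gene, with capitals marking a CCAAT box (CCAAT, or ATTGG for the other strand) or a TATA box (TATAAA, here TTTATA on the other strand). The windows are chr1:119711684-119711933 on the plus strand for PHGDH, chr9:78296875-78297124 on the plus strand for PSAT1 and chr17:18363551-18363800 on the minus strand for SHMT1.
PHGDH: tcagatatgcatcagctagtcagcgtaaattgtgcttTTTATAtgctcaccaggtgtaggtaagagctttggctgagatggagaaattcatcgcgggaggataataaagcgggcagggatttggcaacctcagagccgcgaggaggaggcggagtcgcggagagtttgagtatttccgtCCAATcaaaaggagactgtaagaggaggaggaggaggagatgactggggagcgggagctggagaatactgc
PSAT1: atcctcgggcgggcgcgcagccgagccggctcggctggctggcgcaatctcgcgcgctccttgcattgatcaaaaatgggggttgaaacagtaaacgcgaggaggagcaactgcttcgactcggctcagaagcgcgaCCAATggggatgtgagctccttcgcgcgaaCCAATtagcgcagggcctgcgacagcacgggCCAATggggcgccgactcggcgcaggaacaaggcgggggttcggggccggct
SHMT1: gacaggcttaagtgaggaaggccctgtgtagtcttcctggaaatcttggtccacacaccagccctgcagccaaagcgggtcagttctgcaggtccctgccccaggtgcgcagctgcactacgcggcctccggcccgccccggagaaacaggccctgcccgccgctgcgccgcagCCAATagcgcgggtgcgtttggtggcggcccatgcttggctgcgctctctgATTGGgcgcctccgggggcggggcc

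All 3 promoters held a CCAAT box, as did 34.6% of the 35116 windows in the table (300 bases each, 250 before and 50 after the start, both strands searched). PSAT1 had 3 CCAAT matches, beginning 113, 83 and 52 bases before the start, and 3.26% of all windows had at least 3. PHGDH had 1, at 71 bases, and SHMT1 had 2, at 76 bases and, on the other strand, at 25 bases. The TATA box match of PHGDH lay 213 bases before the start, and 11.5% of all windows held those letters. The C/EBP-ATF response element searched as TGATGNAA, the cAMP response element TGACGTCA and the E-box CACGTG had no match in the 3 windows. They occurred in 3.62%, 1.85% and 7.26% of all windows. No motif searched overlapped another in these windows. The CCAAT box was present in the promoters of PHGDH and PSAT1 and in that of SHMT1, whose transcript did not stand higher without doxycycline. PSPH and SHMT2 had no window, and a link between motif and response was not tested.

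The arrays were closely alike, and the targeted gene followed its labels. Across all probe sets, arrays of 1 group correlated at 0.991 to 0.993 and arrays of different groups at 0.990 to 0.991, and their medians lay between 3.94 and 3.96 (log2). KDM4C read 7.71, 7.77 and 7.80 with doxycycline and 8.97, 9.08 and 9.02 without it. That is a log2 difference of 1.27 (SE 0.07, limma adjusted p = 0.00788), or 2.40-fold, and its probe set does not separate the construct from the endogenous transcript. Of 10 markers of noradrenergic neuroblastoma 8 had a probe set, with means of 8.80 (log2) or more, and 0 of them passed the test. Of these 8, CHGA was at -0.40 (log2 difference, limma adjusted p = 0.0856), TH at 0.34 (0.190) and DBH at 0.28 (0.244), each with groups that did not overlap and an unadjusted limma p below 0.05. GATA2, at 0.20, also had groups that did not overlap, and the other markers' groups overlapped. Of the 14884 named genes, 1127 stood higher and 1023 lower with an unadjusted limma p below 0.05. Groups did not overlap in 12.1% of named genes in the higher direction and 12.5% in the lower. The part of these markers in the results below was not tested. Markers of blood, epithelium and endothelium had 6 probe sets among them, with means between 3.03 and 5.75, and 0 of these passed. No fibroblast marker of the list had a named probe set.

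Of the 5 enzymes, PSPH and SHMT2 rose without doxycycline and 0 fell, judged by limma's p adjusted over all 53617 probe sets against a threshold of 0.05. PHGDH and PSAT1 stood higher by a similar amount without passing, and the cytosolic SHMT1 stood slightly lower without passing. Of all probe sets 0.248% were called higher and 0.0933% lower, and of the 14884 named genes 0.43% and 0.134%. The median log2 difference of the 5 enzymes was 0.54, against -0.002 over all named genes. In 4 of the 5 the values without doxycycline all lay above those with it, which 12.1% of named genes showed in that direction and 12.5% in the opposite one. In bulk RNA, a change in some of the cells and a smaller change in all of them cannot be told apart. With any 1 of the 6 arrays left out, 0 of the 5 passed. Of 53617 probe sets 0 to 15 then did.

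**Figure D1:**
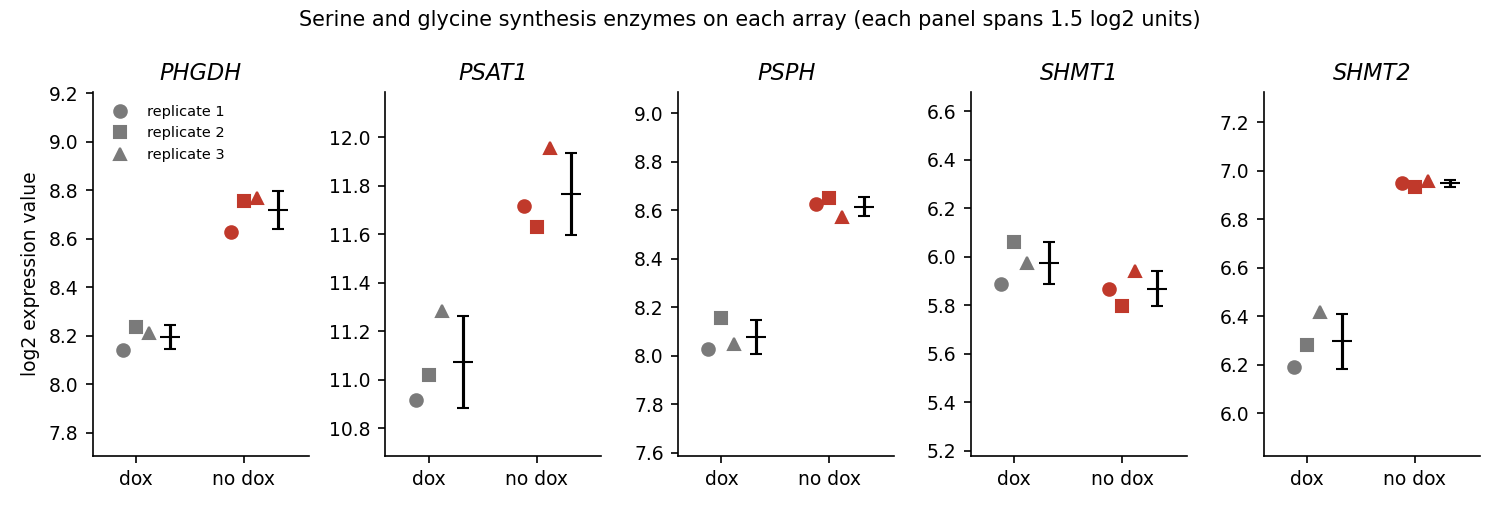
Log2 expression value (vertical axis) of each enzyme on each array with doxycycline (grey) and without (red), with the marker shape giving the replicate number and the bar the mean ± SD of 3 arrays. PHGDH, PSAT1, PSPH and SHMT2 show groups that do not overlap, and SHMT1 shows overlapping groups.

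PHGDH, which commits 3-phosphoglycerate to serine, read 8.14, 8.24 and 8.21 (log2) with doxycycline and 8.63, 8.76 and 8.77 without. The groups were separated by 0.39, several times the spread within either. The difference was 0.52 (SE 0.07, 95% confidence interval 0.35 to 0.69), a 1.44-fold higher level, with a limma adjusted p of 0.0507, just outside the threshold. PHGDH passed with quantile normalization (limma adjusted p = 0.0467), without dim probe sets (0.0390) and with trend and robust moderation (0.0203).

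PSAT1, the aminotransferase of the second step, read 10.92, 11.02 and 11.28 with doxycycline and 11.72, 11.63 and 11.96 without. The groups did not overlap, but within each group the arrays differed more than for the other enzymes, with an SD of 0.19 with and 0.17 without doxycycline. Its log2 difference was 0.69 (SE 0.13, 95% confidence interval 0.39 to 1.00), or 1.62-fold, the largest of the 5 in size and the least precise (limma adjusted p = 0.104). RefSeq lists 4 pseudogenes of PSAT1, 1 of PSPH and 1 of SHMT1, and none had a named probe set here. Whether the probes of these 3 genes also bind transcripts of the copies was not tested, which leaves their values uncertain.

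PSPH, which releases free serine in the last step, read 8.03, 8.16 and 8.05 with doxycycline and 8.63, 8.65 and 8.57 without. The lowest array without doxycycline lay 0.41 above the highest with it. PSPH rose by 0.54 on the log2 scale (SE 0.07, 95% confidence interval 0.38 to 0.70), 1.45-fold, with a limma adjusted p of 0.0449. The call was lost with any 1 array left out (limma adjusted p = 0.114 to 0.172), while the difference stayed between 0.51 and 0.58.

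SHMT2, the mitochondrial serine hydroxymethyltransferase, read 6.19, 6.28 and 6.42 with doxycycline and 6.95, 6.93 and 6.96 without. The arrays without doxycycline were nearly identical, with an SD of 0.013, and the groups were separated by 0.52, the widest gap of the 5. SHMT2 rose by 0.65 (SE 0.08, 95% confidence interval 0.47 to 0.83), 1.57-fold, with a limma adjusted p of 0.0367. It too was lost with any 1 array left out (limma adjusted p = 0.0727 to 0.161), at differences of 0.60 to 0.71.

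SHMT1, the cytosolic isoenzyme, read 5.89, 6.06 and 5.98 with doxycycline and 5.87, 5.80 and 5.94 without. The groups overlapped. The difference was -0.11 (SE 0.08, limma adjusted p = 0.627), and its 95% confidence interval of -0.29 to 0.07 corresponds to between 0.819- and 1.05-fold. An increase of the size seen for the other 4 lies outside that interval. By strength of the moderated statistic SHMT2, PSPH, PHGDH and PSAT1 ranked 52, 63, 89 and 232 of the 14884 named genes, and SHMT1 ranked 5317.

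Both serine hydroxymethyltransferases were then set against each other within each array, since each array measures the pair in the same RNA. The level of one probe set cannot be compared with that of another, so the SHMT2 minus SHMT1 difference is given relative to its mean with doxycycline. It was -0.02, -0.10 and 0.12 on the arrays with doxycycline and 0.77, 0.81 and 0.70 on those without. The groups were far apart, with a shift of 0.76 (log2), so that the no-doxycycline to doxycycline ratio was 1.69 times as large for the mitochondrial as for the cytosolic transcript. The two-sided exact permutation test gave p = 0.1, the smallest that 3 against 3 arrays allow (0.4 after Benjamini-Hochberg adjustment over 4 such comparisons), and so cannot reach 0.05. Fitted with limma beside all probe sets, the shift had an SE of 0.08 and a 95% confidence interval of 0.57 to 0.95. Its limma adjusted p was 0.0295 over all rows fitted, the scale used for single enzymes, and 1.69e-04 over the 4 comparisons.

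Along the branch that ends in SHMT2, consecutive steps did not differ in their response beyond the spread between arrays. The other branch, from PSPH to SHMT1, was not compared within arrays. Singly, PSPH was at 0.54 (95% confidence interval 0.38 to 0.70) and SHMT1 at -0.11 (-0.29 to 0.07). The shift of PSAT1 relative to PHGDH was 0.17 (limma 95% confidence interval -0.11 to 0.46, exact permutation p = 0.2). That of PSPH relative to PSAT1 was -0.16 (-0.50 to 0.19, exact permutation p = 0.5), and that of SHMT2 relative to PSPH was 0.11 (-0.09 to 0.32, exact permutation p = 0.3). After adjustment over the 4 comparisons these exact permutation p-values were 0.4, 0.5 and 0.4. In all 3 the groups overlapped. The intervals still allow shifts of up to 0.50 between neighbouring steps, so an equal response is not shown. The order of the 4 differences, PSAT1 above SHMT2, PSPH and PHGDH, is thus not resolved between these neighbours of the pathway.

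**Figure D2:**
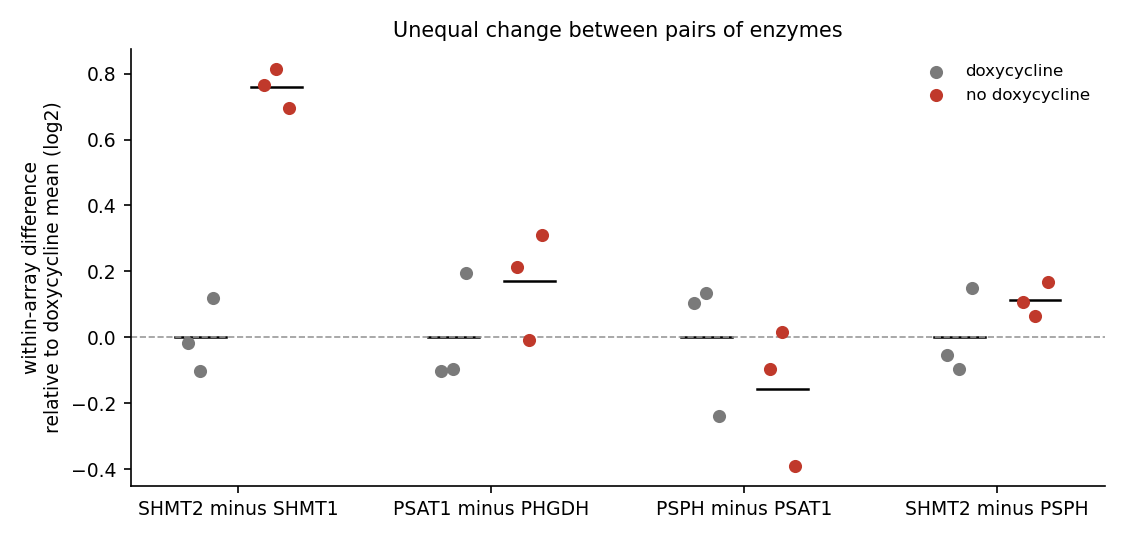
Difference of 2 enzymes' log2 values within an array, relative to the mean of the doxycycline arrays (vertical axis), for 4 pairs, with grey points for doxycycline, red points for no doxycycline and a black line for the mean of 3 arrays. The SHMT2 minus SHMT1 points without doxycycline lie between 0.70 and 0.81, above all those with it, and the groups overlap in the other pairs.

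The measured genes around the pathway mostly did not pass the test, and their lists had medians between -0.13 and 0.09 (log2 difference). Most lists were measured only in part, with MTHFD2, SLC1A4, SLC1A5, ENO1 and PKM among the genes without a named probe set. The medians therefore do not describe the whole lists. In the supply of 3-phosphoglycerate by lower glycolysis, 5 of 10 genes were measured and 0 passed (median 0.08). GAPDH and PGK1, which lead to 3-phosphoglycerate, were at 0.11 and 0.08. PGAM2, the muscle form of the mutase that draws it onward, was at -0.99 (SE 0.26, limma adjusted p = 0.214), with values of 6.78, 7.34 and 6.82 with doxycycline and 6.20, 6.32 and 5.44 without.

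The glycine cleavage system, which breaks glycine down in mitochondria, was measured in full, and 0 of its 4 genes passed (median -0.13). GCSH, its lipoic acid carrier protein, was at -0.63 (SE 0.16, limma adjusted p = 0.214), with an SD of 0.34 with doxycycline against 0.06 without. GLDC, the decarboxylase, read 3.84 without and 3.73 with doxycycline, close to the median probe set of 3.94, and DLD, a subunit shared with other dehydrogenase complexes, was at -0.21. Of the folate one-carbon enzymes, 4 of 10 were measured and 0 passed (median 0.09). MTHFD1L, the mitochondrial formate synthetase, was at 0.42 (SE 0.07, limma adjusted p = 0.0775), TYMS, thymidylate synthase, at 0.15, and MTHFD2L at -0.25.

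Among enzymes that consume serine, 5 of 11 were measured and 0 passed (median -0.09). SARS1, the cytosolic seryl-tRNA synthetase, was at 0.47 (SE 0.07, limma adjusted p = 0.0720), and its values of 10.18, 10.31 and 10.33 with doxycycline lay below those of 10.69, 10.72 and 10.82 without. SRR, serine racemase, was at 0.04, and the phosphatidylserine synthases PTDSS1 and PTDSS2 were at -0.19 and -0.27. In a list of glycine-related enzymes, 1 of 7 measured rose and 0 fell (median 0.05). It was GARS1, the glycyl-tRNA synthetase, at 9.91, 9.97 and 9.91 with doxycycline and 10.53, 10.53 and 10.59 without (log2 difference 0.62, SE 0.06, 1.53-fold, limma adjusted p = 0.0261). The call was lost with any 1 array left out. GATM, which uses glycine for creatine synthesis, was at 0.14. The list also held GCAT, which releases glycine in threonine breakdown, at -0.23, and GLYCTK, a glycerate kinase that does not use glycine, at -0.08. Of the carriers, 3 of 11 were measured, and SFXN1, a mitochondrial serine transporter, SFXN2 and SFXN3 were at -0.07, -0.03 and 0.07.

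Of 16 regulators reported for the pathway 14 were measured, 2 rose and 0 fell (median 0.08), beside 0.43% and 0.134% of all named genes. The 2 that rose were KDM4C itself, which the design induces, and DDIT3, a stress-induced transcription factor. DDIT3 read 6.41, 6.37 and 6.04 with doxycycline and 7.77, 7.63 and 7.51 without (log2 difference 1.36, SE 0.12, limma adjusted p = 0.0184). Of the 14, 9 differences were positive and 5 negative. With 1 array left out, 0 or 1 of the 14 passed. ATF4, which activates amino acid synthesis genes, was at 0.31 (SE 0.07, limma adjusted p = 0.179). ATF3 was at 0.41 (SE 0.08, limma adjusted p = 0.123), with groups that did not overlap and a low mean level of 3.77. EHMT2, a histone H3 lysine 9 methyltransferase, was at -0.04. The kinases EIF2AK2 and EIF2AK3 phosphorylate the initiation factor eIF2 under stress. EIF2AK2 was at -0.33 (SE 0.06, limma adjusted p = 0.119), with groups that did not overlap. EIF2AK3 was at -0.18 (limma adjusted p = 0.531). MYCN had no named probe set.

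**Figure D3:**
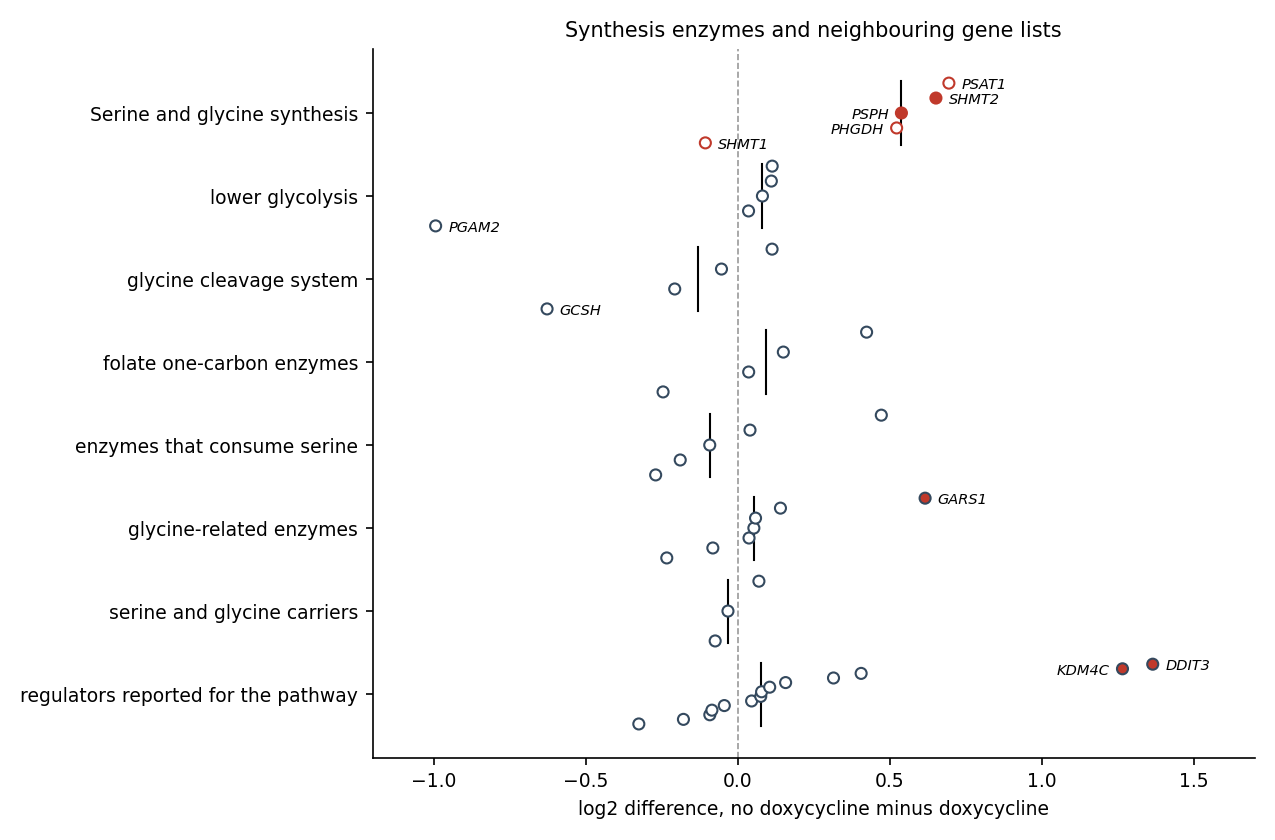
Log2 difference (no doxycycline minus doxycycline, horizontal axis) of each measured gene in the synthesis pathway and the 7 neighbouring lists, with filled points for a limma adjusted p below 0.05 over all probe sets and a black line for the list's median. PSPH and SHMT2 are filled, PHGDH and PSAT1 lie beside them unfilled, and the medians of the neighbouring lists lie between -0.13 and 0.09.

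Other genes with profiles close to those of the enzymes were found by Pearson correlation over the 6 arrays, among 9104 named genes brighter than the median probe set. The arrays form 2 groups, so a high correlation mostly reflects a shared difference between groups. Any scaling that the arrays share, which is not known, may add to it. Between 132 and 226 genes reached 0.95 for PHGDH, PSAT1, PSPH and SHMT2, and 40 for SHMT1. Closest to PHGDH were ANKRD11 (0.999), MYBL2 (0.998) and CDC20 (0.997), and closest to PSAT1 were IER2 (0.995), SPNS1 (0.993) and CPED1 (0.991). PSPH was closest to CEP55 (0.996), BUB1B (0.996) and RFWD3 (0.995), and SHMT2 to XBP1 (0.997), ENOX2 (0.997) and the row of MIR3143 (0.996). For SHMT1 they were the read-through gene GUCA1ANB-GUCA1A (0.991), ADCY1 (0.991) and the row of MIR4522 (0.990). The 2 microRNA rows report long labelled RNA and not a mature microRNA.

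The side of the threshold on which PHGDH, PSAT1, PSPH and SHMT2 fell varied with the setting, and the sign of their differences did not. Few settings could change that sign. Filtering, moderation, a block for the replicate number, averaging a gene's probe sets and fitting named genes alone leave each difference unchanged. With groups that do not overlap, leaving out 1 array cannot reverse a difference. Across 14 settings PHGDH lay between 0.50 and 0.57, PSAT1 between 0.60 and 0.80, PSPH between 0.51 and 0.58, SHMT2 between 0.60 and 0.71 and SHMT1 between -0.15 and -0.06. PSPH and SHMT2 passed in 7 of the 14 each, PHGDH in 4, PSAT1 in 1 and SHMT1 in 0. Those 7 include the mean of all probe sets of a gene, which leaves an enzyme with 1 probe set at the same value. PSAT1 passed when the 14884 named genes alone were fitted (limma adjusted p = 0.0243), a setting chosen after seeing the data, in which 4 of the 5 enzymes were called higher and 0 lower, beside 1.69% and 1.01% of all named genes.

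**Figure D4:**
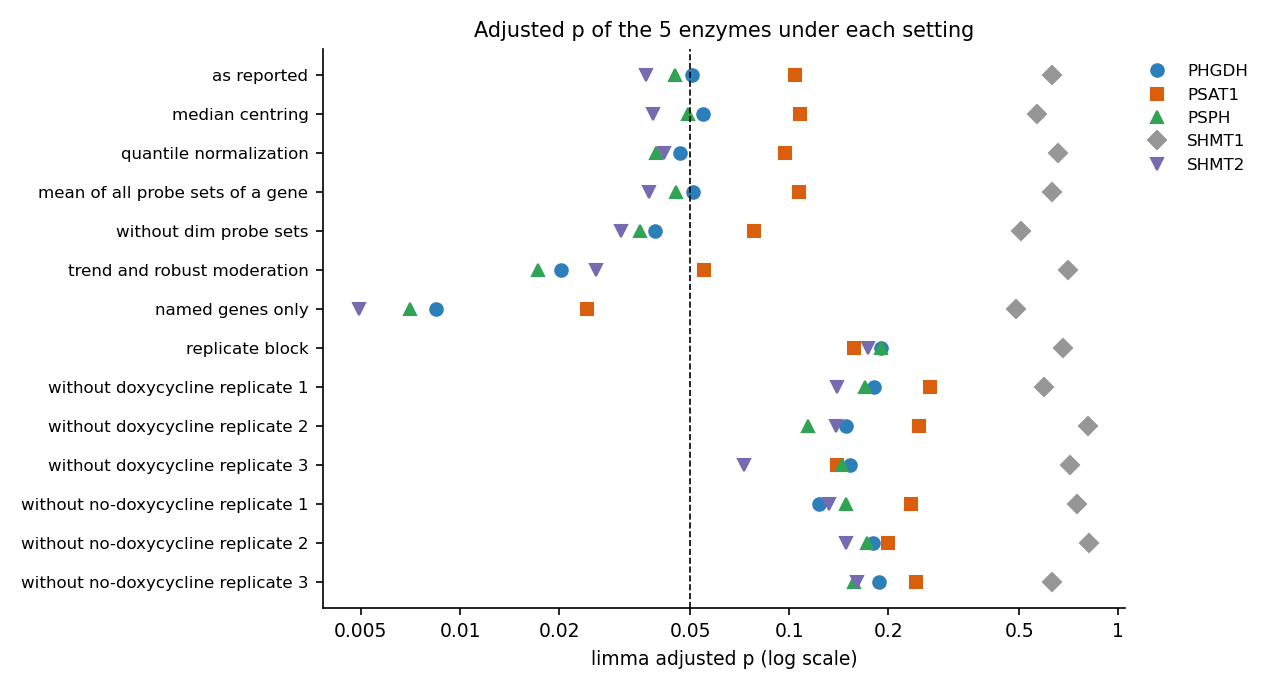
Limma adjusted p (horizontal log axis) of each enzyme under the reported setting and 13 alternatives (vertical axis), with the dashed line at 0.05. PSPH and SHMT2 lie left of the line in the 7 settings that use all arrays without a replicate block, and no enzyme does with an array left out.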

How the data were processed

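Total RNA of 6 samples, 3 with and 3 without doxycycline, was measured on 1 array each. The deposited table holds log2 expression values summarized by the authors for each probe set. They processed the arrays in Partek, per the submitters' processing notes. How background, normalization and summarization were handled, and on which genome build, is not given in the sources used here. Values between 2.12 and 14.3 gave the log base. No detection calls were used, and the number of arrays limits the precision. Of 53617 probe sets 16098 had exactly 1 symbol in GEO's platform annotation, and these symbols were checked against RefSeq through Entrez identifiers. The other probe sets were left unnamed, and a listed gene without a named probe set was counted as not measured.

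The contrast, no doxycycline minus doxycycline, was estimated over all probe sets by limma 3.58.1 under R 4.3.3 (lmFit, eBayes, without covariates or filter), with Benjamini-Hochberg adjustment and a threshold of 0.05. Errors are the SE of the moderated fit or the SD of 3 arrays. The probe set with the highest mean stood for a gene. Differences between enzymes within an array were tested by exact permutation. The procedure was tested on simulated data, where it recovered 25.4% of changes of 0.5 (log2) and 98.5% of changes of 1. A gene that did not pass may therefore still differ by about the amounts seen for the enzymes.

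Members, lists, motifs and the rule for named genes (in each list the 2 smallest p-values in each direction and every gene past the threshold, and for each enzyme the 3 highest correlations) were chosen with earlier results of these data known. ATF3, ATF4 and EHMT2 were named beyond the rule, after their values were seen. Titles share replicate numbers, but the deviations of same-numbered arrays correlated at only -0.0119, -0.0144 and 0.0407, so no pairing was assumed. A planned comparison of the SHMT proteins was not run.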

Additional observations from a re-analysis of the deposited data

How the results depend on the processing

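The differences of the 5 enzymes kept their sign under each of 13 alternatives, but the calls depended on the setting. For PHGDH, PSAT1, PSPH and SHMT2, only quantile normalization and a shift of each array to a common median could have reversed the sign. PHGDH passed with quantile normalization (0.52), without dim probe sets (0.52), with trend and robust moderation (0.52) and, with PSAT1 (0.69), when named genes alone were fitted, which raised the enzymes called from 2 to 4. With the replicate number as a block 0 of the 5 passed, with PSPH at 0.54 and SHMT2 at 0.65 (limma adjusted p = 0.190 and 0.174), as did 0 of all probe sets. With that block 0 regulators and 0 glycine-related enzymes passed. The SHMT2 minus SHMT1 shift was 0.76 with limma and the block (limma adjusted p = 0.00253 over the 4 comparisons) and 0.76 with limma and no block. Over those 4 comparisons it lay past the threshold in both, which the exact permutation test cannot reach. The enzymes were adjusted over all probe sets instead. With the block, the unadjusted limma p was 0.000633 for the shift and 0.000592 for SHMT2 alone. The numbers do not pair the samples, and 2 of 6 arrays correlated best with their own number.

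With each array left out in turn, PSPH stayed at 0.51 to 0.58 and SHMT2 at 0.60 to 0.71, and the enzymes passing numbered 0 each time, the regulators 0 to 1 and the glycine-related enzymes 0. Fewer samples were then fitted. With trend and robust moderation, 1 enzyme that consumes serine and 1 folate enzyme passed, as when named genes alone were fitted, where 4 regulators passed. The probe sets past the threshold numbered 183 as reported, 311 without dim probe sets, 385 with trend and robust moderation, 402 with named genes alone and 0 to 15 with an array left out. Some of these settings fitted fewer features or samples, and the cause of the changes was not tested. Each array shifted to 1 median changed no call of an enzyme or list. The mean of all probe sets of a gene also changed none. It could not alter their values, since each of these genes had 1 named probe set. The promoter matches were the same in the 250 bases before the start. SHMT1 lay on the same side of the threshold in each setting.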
